A study of Mus musculus with 26 samples.

Results

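MRTX1719 was compared with GSK3326595 in Mtap knockout MC38/gp100 cells, by poly(A) RNA sequencing. The comparison covers 6 of the 26 libraries of the series, 3 with each inhibitor, and all genes of the MC38 count table. All 6 libraries came from the same Mtap knockout (KO) line, and the cells were treated for 5 days. Each inhibitor was given at 0.5 uM, so dose and time are matched. The labels describe MC38/gp100 as a mouse colon adenocarcinoma line, and they do not say whether the KO line is a clone or a pool. The titles name GSK3326595 in all 3 replicates, while the treatment field gives another last digit in replicates 2 and 3. These libraries were taken as treated with 1 compound. For reference, 3 KO libraries treated with DMSO and 5 wild-type libraries (2 with MRTX1719, 3 with GSK3326595, at the same dose and time) were used. Levels of 3 wild-type DMSO libraries are given for some genes and lists. The series as a whole asks how inhibitors that act together with methylthioadenosine differ from another PRMT5 inhibitor in tumour cells and T cells.

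PRMT5 is the main enzyme that places symmetric dimethyl marks on arginines, and it works in a complex with the WD-repeat protein WDR77. Its substrates include the Sm proteins of the spliceosome and histone tails. MTAP clears methylthioadenosine (MTA), a by-product of polyamine synthesis that occupies the cofactor pocket of PRMT5, so cells without MTAP hold more PRMT5 bound to MTA. MRTX1719 binds PRMT5 together with MTA, whereas GSK3326595 inhibits PRMT5 without needing MTA.

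Mtap itself was checked first. It stood at 203, 206 and 205 CPM (counts scaled for the size of each library) with MRTX1719 and at 236, 251 and 249.8 CPM with GSK3326595, below the 399.6 and 399 CPM and 417, 421 and 418 CPM of the wild-type libraries with the same inhibitors. All 6 KO libraries thus lay below all 5 wild-type libraries, but reads outside a deleted stretch still count for the gene, so this is a partial check of the label. Library totals were 21127470 to 27786226 counts in the 6 libraries. Replicates of a group differed by a chi-square per gene of 1.38 to 2.68 over all MC38 groups, and KO GSK3326595 replicate 1 stood furthest from its group. Its deviation from the other replicates of its group correlated across 9005 genes with transcript GC content (Spearman's rho 0.57). GSK3326595 replicates 2 and 3, whose reference holds replicate 1, gave -0.36 and -0.37. The MRTX1719 libraries gave -0.23 to 0.16 and the KO DMSO libraries -0.01 to 0.02. Counts without GSK3326595 replicate 1 are therefore also given for some lists. Counts of other lists moved as well, such as the unfolded protein response genes called higher, 17 with all libraries and 16 without it. The labelled tissue was hardly visible, since Epcam, Cdx2 and Vil1, markers of intestinal epithelium, had 1, 1 and 22 counts over the 6 libraries. Among markers of other cells, the fibroblast genes Col3a1 (2847 CPM with GSK3326595) and Dcn (925 CPM) were abundant, and the summed CPM of the 6 leukocyte markers tested was 30.25 to 34.07 with GSK3326595 and 36.56 to 41.46 with MRTX1719. The myeloid marker Itgam had 4 counts over the 6. In bulk RNA, fewer cells of a type and less RNA per cell cannot be told apart. The degree of PRMT5 inhibition reached by each compound is not part of these data.

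The KO libraries of the 2 inhibitors differed at more than 1 gene in 2, by small steps. The labels do not say whether replicates were separate cultures, so the spread behind these calls may be technical. Of 14835 genes tested, 7889 differed between MRTX1719 and GSK3326595 at an adjusted p under 0.05 (53.2%), by edgeR's quasi-likelihood test with Benjamini-Hochberg adjustment, which gives all adjusted p below. There were 4201 genes higher with MRTX1719 (28.3%) and 3688 lower (24.9%). The counts of list members called in this comparison, given below, are to be read against these shares. At least a 2-fold difference was present in 143 of the higher genes (0.964% of those tested) and in 245 of the lower ones (1.65%), so 95.1% of the called genes differed by less than 2-fold. The median log2 fold change was 0.22 among genes called higher and -0.31 among those called lower, and it was 0.01 over all genes tested. Without GSK3326595 replicate 1, 7527 genes were called, and 91.1% of the 7889 were among them in the same direction. Against DMSO, 10464 genes differed with MRTX1719 (70.5%), 1779 of them at least 2-fold (12.0%). With GSK3326595, 7830 differed (52.8%), 546 of them at least 2-fold (3.68%). Genes above and below DMSO made up 37.0% and 33.6% with MRTX1719 and 27.7% and 25.1% with GSK3326595. Those 2 comparisons share the DMSO libraries and are set side by side only. The 3 MRTX1719 libraries all lay above the 3 GSK3326595 libraries for 29.6% of genes and all below them for 26.8%. Transcripts called lower were slightly richer in GC (median 50.9% for those under 2-fold) than those called higher (48.4%) or not called (49.1%). Spearman's rho of the log2 fold change with GC content was -0.09, and -0.04 without GSK3326595 replicate 1. The part of GC content in the gene results was not tested.

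**Figure D1:**
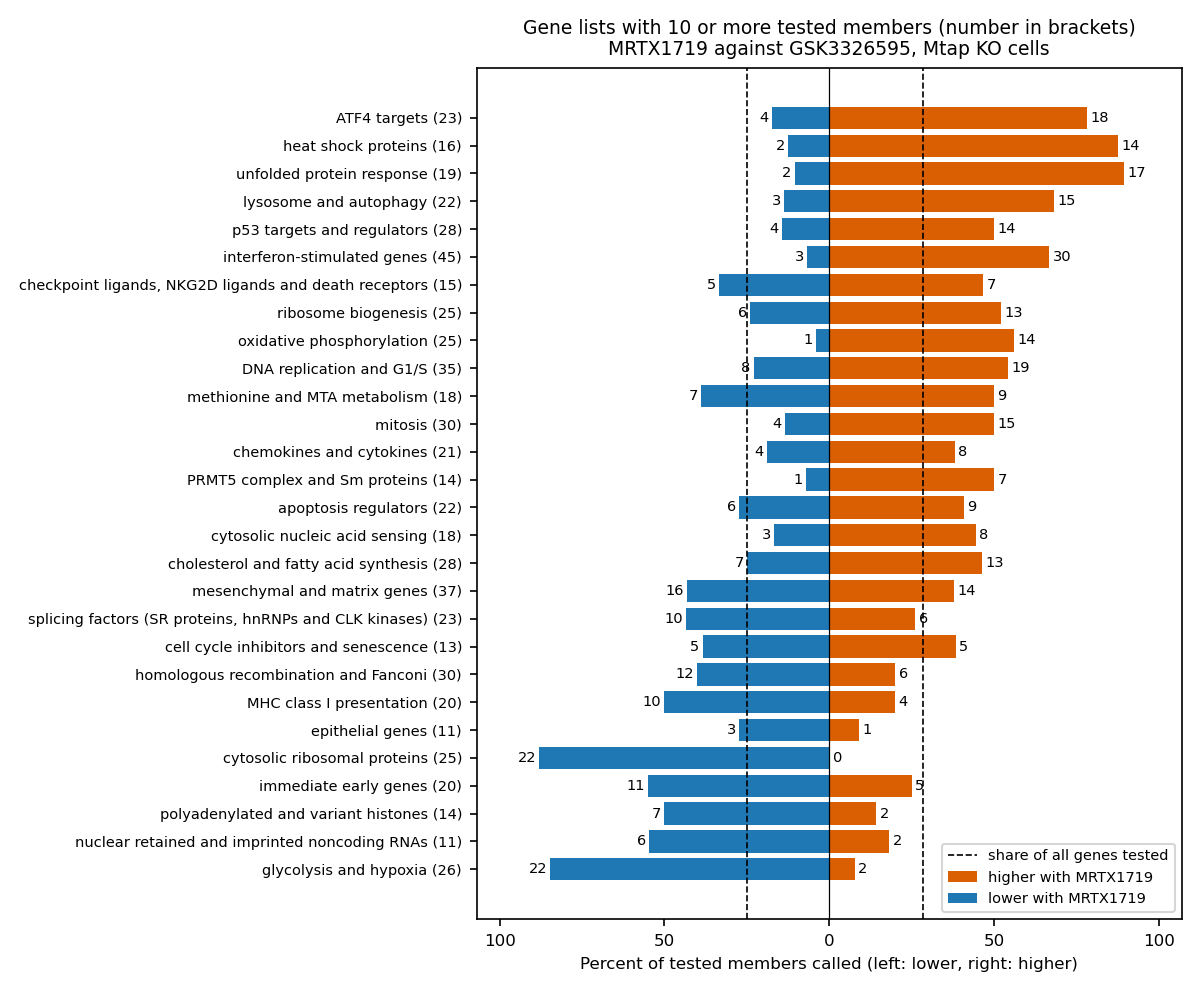
Bars give the percent of tested members of each gene list called higher (right) or lower (left) with MRTX1719 than with GSK3326595 in KO cells, with the number of genes at the bar's end and the list's tested members in brackets. Dashed lines mark the 28.3% and 24.9% of all genes; glycolysis and ribosomal protein genes lean to the left, and unfolded protein response, heat shock and ATF4 genes lean to the right.

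Most genes of glycolysis and of the hypoxia response were lower with MRTX1719 than with GSK3326595. Of 26 genes tested, 22 were lower and 2 higher, with a median log2 fold change of -0.46 against 0.01 over all genes. Against DMSO the same list had 4 higher and 20 lower genes with MRTX1719 (median -0.44), and 13 higher and 10 lower with GSK3326595 (median 0.04). Egln3, an oxygen-sensing prolyl hydroxylase that is itself induced by hypoxia, stood at 91.9, 95.6 and 89.9 CPM with MRTX1719 and at 209, 199 and 206 CPM with GSK3326595. The groups did not overlap, and the GSK3326595 libraries lay next to the 219, 219.7 and 211 CPM of DMSO. The log2 fold change was -1.14 ± 0.029 (SE; adjusted p = 1.39e-73). Pdk1, the kinase that holds back pyruvate dehydrogenase, was 123, 132 and 128 CPM against 246, 245 and 252 CPM (-0.95 ± 0.026, adjusted p = 6.32e-69). With GSK3326595 too, Pdk1 was below DMSO (log2 -0.19). Bnip3, a mitophagy receptor induced by hypoxia, was 151, 154 and 147 CPM against 251, 252 and 262 CPM (-0.76 ± 0.026). It lay above DMSO with GSK3326595 (log2 0.08) and below it with MRTX1719 (-0.68).

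Enzymes along the glycolytic chain were also lower with MRTX1719 than with GSK3326595. Gpi1, the second enzyme of the pathway, was 619 CPM with MRTX1719 and 997 CPM with GSK3326595 (log2 -0.69 ± 0.019). Pgk1, phosphoglycerate kinase, stood at 1055, 1066 and 1060.3 CPM and 1721, 1685 and 1684 CPM in the 2 groups, with no overlap and a log2 fold change of -0.68 ± 0.019 (adjusted p = 1.01e-61). Gpi1 and Pgk1 were below DMSO with GSK3326595 as well (log2 -0.25 and -0.07). Pfkl (-0.73), Aldoa (-0.57), Tpi1 (-0.33), Gapdh (-0.46), Pgam1 (-0.28), Eno1 (-0.39), Pkm (-0.46) and Ldha (-0.44) were all lower with MRTX1719. Near-identical processed copies of Gapdh and other glycolytic genes lie in the mouse genome, and reads shared with them may have been split. The lactate exporter Slc16a3 and the glucose transporter Slc2a1 stood above DMSO with GSK3326595. Slc16a3 differed from DMSO by log2 0.50 with GSK3326595 and -0.07 with MRTX1719, and Slc2a1 by 0.53 and 0.26. Both were thus lower with MRTX1719 than with GSK3326595 (-0.56 and -0.27), and Slc2a1 was above DMSO with either compound. The 2 exceptions were Ndrg1, a stress-induced gene (627 against 543 CPM, log2 0.21 ± 0.02), and Pfkfb3, at 2.95 CPM with GSK3326595 (0.41 ± 0.15). Without MRTX1719 replicate 1, 1 gene of the list was called higher. Hexokinase 2 gave no call (-0.03 ± 0.031, adjusted p = 0.413, 95% interval -0.09 to 0.03).

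**Figure D2:**
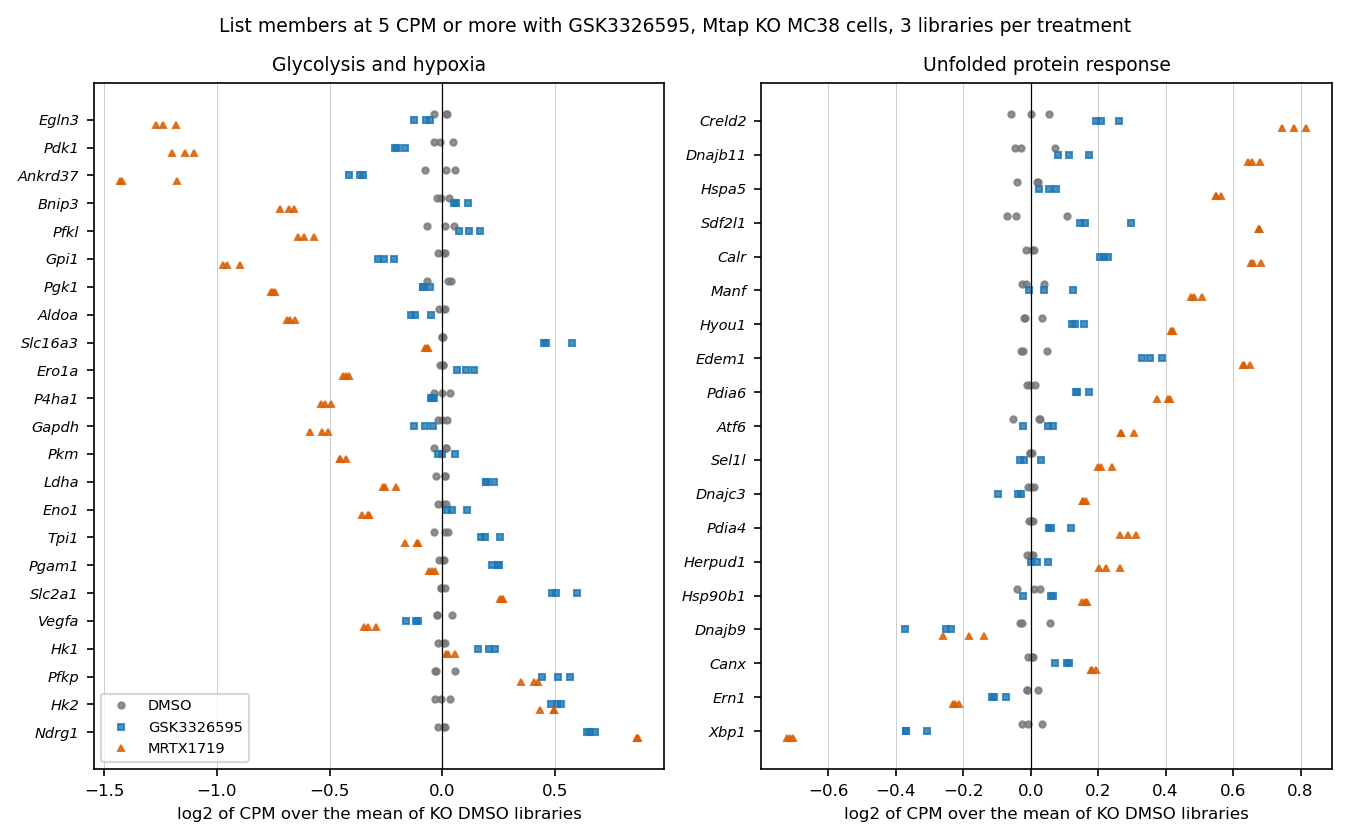
Each point is 1 KO library, as the log2 ratio of its CPM to the mean of the DMSO libraries, for glycolysis and hypoxia genes (left) and unfolded protein response genes (right) at 5 CPM or more with GSK3326595. Triangles (MRTX1719) lie left of squares (GSK3326595) for glycolytic genes down to Pfkp, and right of them for most unfolded protein response genes.

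The promoters of the glycolysis and hypoxia list were searched for ACGTG, the core of the element bound by hypoxia-inducible factors, on both strands of windows from 250 bases before to 50 after each RefSeq start. The letters were present for 18 of the 24 genes with a promoter in the table, against 21.8% of all 27025 genes. A match is a description of the sequence only. The 250 bases before the starts of Bnip3 (chr7:138909507-138909756, minus strand) and Pgk1 (chrX:106186850-106187099, plus strand), both lower with MRTX1719, are shown from RefSeq on GRCm38.p6, 5′ to 3′ on the gene's strand, with ACGTG or its complement CACGT in capitals. In Bnip3 the 2 matches overlap as a palindrome, and in Pgk1 they lie apart.
Bnip3: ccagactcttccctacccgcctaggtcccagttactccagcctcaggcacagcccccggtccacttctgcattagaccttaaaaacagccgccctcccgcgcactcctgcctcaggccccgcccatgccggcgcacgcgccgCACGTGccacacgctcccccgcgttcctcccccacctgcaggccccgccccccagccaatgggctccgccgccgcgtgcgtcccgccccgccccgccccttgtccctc
Pgk1: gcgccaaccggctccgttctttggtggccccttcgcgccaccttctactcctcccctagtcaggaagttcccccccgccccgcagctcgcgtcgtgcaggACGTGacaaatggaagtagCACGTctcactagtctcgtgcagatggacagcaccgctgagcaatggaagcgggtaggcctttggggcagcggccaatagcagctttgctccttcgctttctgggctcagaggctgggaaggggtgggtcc

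Chaperones of the endoplasmic reticulum were higher with MRTX1719. Of 19 unfolded protein response genes, 17 were higher and 2 lower, with a median log2 fold change of 0.25. Against DMSO, 16 were higher and 3 lower with MRTX1719 (median 0.29), and 10 higher and 4 lower with GSK3326595 (median 0.05). Hspa5, the chaperone BiP, stood at 3595, 3597 and 3633 CPM with MRTX1719 and 2504, 2590.4 and 2551 CPM with GSK3326595. The GSK3326595 values lay just above those of DMSO (2391, 2495 and 2490.3 CPM), and the MRTX1719 values lay well above both. The log2 fold change between the inhibitors was 0.50 ± 0.016 (adjusted p = 7.2e-60), one of the 5 smallest p among higher genes. Calr, the calcium-binding chaperone calreticulin, was 1563, 1596 and 1569 CPM against 1154, 1165 and 1145 CPM (0.45 ± 0.018, adjusted p = 4.92e-51). Creld2, a secreted protein induced by unfolded proteins, was 95.8, 93.5 and 91.1 CPM against 65.2, 62.9 and 62.2 CPM (0.56 ± 0.035), and Dnajb11, a cochaperone of BiP, was 128, 129.8 and 127 CPM against 87.7, 91.5 and 85.8 CPM (0.54 ± 0.031). The neurotrophic factor Manf (0.44 ± 0.024), Sdf2l1 (0.48 ± 0.051), Hyou1 (0.28 ± 0.02) and the degradation factor Edem1 (0.28 ± 0.026) were higher too. The exceptions were upstream regulators: Xbp1, the transcription factor of the IRE1 branch, was 124, 125 and 123 CPM against 157, 157 and 164 CPM (-0.36 ± 0.027), and Ern1, which encodes IRE1, was lower by a small step (-0.12 ± 0.024). Counts per gene do not separate spliced from unspliced Xbp1.

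The element that responds to endoplasmic reticulum stress, CCAAT and CCACG with 9 bases between them, was present on either strand in the promoter windows of 7 of 16 listed genes, against 0.137% of all genes. The 7 were Calr, Canx, Creld2, Dnajc3, Hsp90b1, Hspa5 and Pdia6. All 7 were higher with MRTX1719, by log2 0.09 (Canx) to 0.56 (Creld2), but so were 17 of the 19 genes of the list. The element holds a CCAAT box. Hspa5 (chr2:34771840-34772089, plus strand) and Creld2 (chr15:88819396-88819645, plus strand) are shown as above, with the element in capitals, in reverse orientation in Creld2.
Hspa5: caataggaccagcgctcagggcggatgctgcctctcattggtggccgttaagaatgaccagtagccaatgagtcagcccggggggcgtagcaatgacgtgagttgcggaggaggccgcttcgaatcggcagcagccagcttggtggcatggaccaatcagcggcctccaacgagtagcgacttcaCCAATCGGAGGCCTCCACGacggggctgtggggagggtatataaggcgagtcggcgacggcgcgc
Creld2: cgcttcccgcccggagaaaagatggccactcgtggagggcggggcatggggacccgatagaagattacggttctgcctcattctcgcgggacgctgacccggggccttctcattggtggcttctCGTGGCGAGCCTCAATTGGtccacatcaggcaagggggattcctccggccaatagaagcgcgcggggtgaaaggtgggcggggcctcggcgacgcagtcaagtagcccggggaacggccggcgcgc

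Most genes for heat shock proteins, cytosolic and mitochondrial, and most targets of ATF4, the factor of the integrated stress response, were also higher with MRTX1719. Of 16 heat shock genes, 14 were higher and 2 lower with MRTX1719 (median 0.25); the lower ones, Hsp90ab1 (-0.06) and Hspa8 (-0.04), differed by little, and 1 was called lower when any library but GSK3326595 replicate 1 was left out, or with DESeq2, RLE factors or the replicate block. Hspa4, a nucleotide exchange factor of HSP70, was 704, 708 and 711 CPM against 536, 544 and 538 CPM (0.39 ± 0.019, adjusted p = 9.01e-41). Hsp90aa1, the inducible HSP90, was 1454, 1475 and 1502 CPM against 1125, 1194 and 1189 CPM (0.34 ± 0.019). The inducible Hspa1b, which has a near-identical neighbour, Hspa1a, was at only 0.879 CPM with GSK3326595 and 1.37 with MRTX1719. The heat shock element, GAA, TTC and GAA with 2 bases between neighbours, was present in the windows of 4 of 12 listed genes with a promoter (Chordc1, Hspd1, Hspe1 and Hsph1) against 0.662% of all genes.

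Of 23 ATF4 targets, 18 were higher and 4 lower (median 0.26), while against DMSO 14 were higher and 6 lower with MRTX1719, and 8 higher and 6 lower with GSK3326595. Mthfd2, the mitochondrial folate enzyme, was 170.1, 170.0 and 165 CPM against 123, 127 and 123 CPM (0.43 ± 0.027), and Phgdh, the first enzyme of serine synthesis, was 576, 599 and 578 CPM against 475, 451 and 455 CPM (0.34 ± 0.021, adjusted p = 1.59e-32). Asparagine synthetase Asns (0.34 ± 0.022), Psph (0.48 ± 0.036) and the amino acid transporter chain Slc3a2 (0.39 ± 0.022) were higher as well. Atf3, at 11.5 CPM with GSK3326595, had the largest difference of the list (0.81 ± 0.065). Aldh1l2 (-0.44 ± 0.045), Pck2 (-0.39 ± 0.034), Ddit4 (-0.30 ± 0.044) and Atf5 (-0.23 ± 0.026) were lower, so the list was not of 1 direction. Atf4 RNA itself differed by 0.13 ± 0.019.

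**Figure D3:**
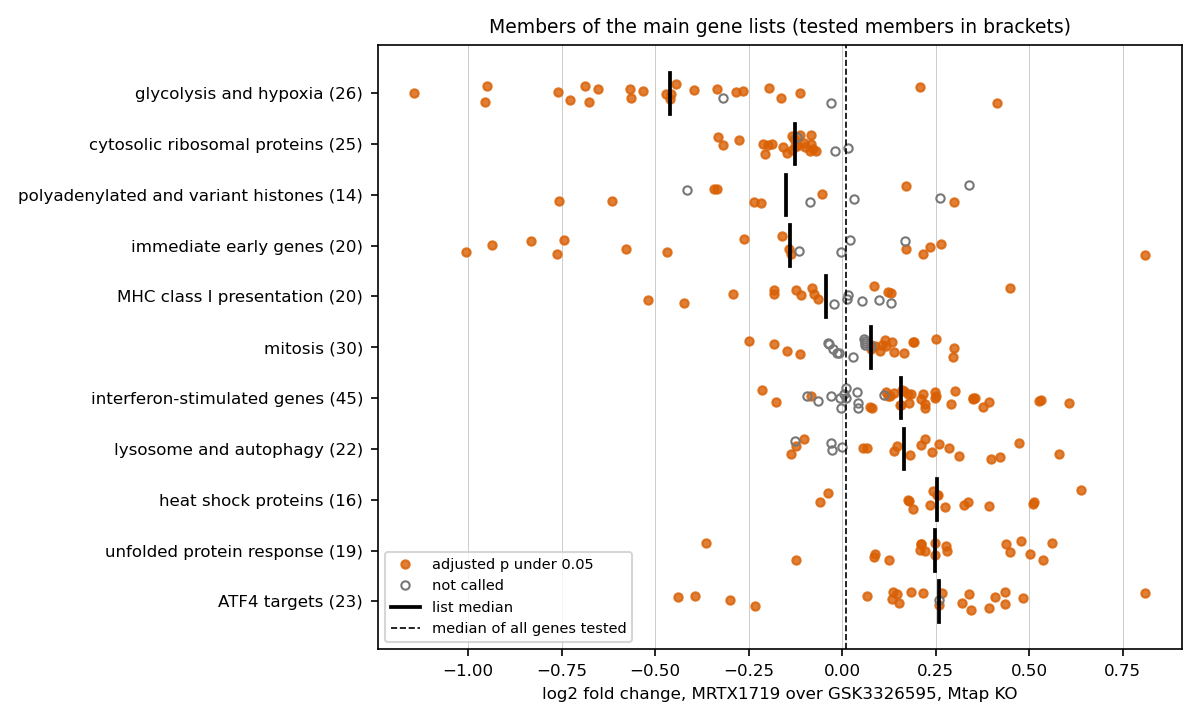
Each point is 1 gene of a list, placed by its log2 fold change between MRTX1719 and GSK3326595 in KO cells; filled points passed the test, black bars are list medians and the dashed line is the median of all genes tested. Glycolysis genes spread to -1.14, and the medians of the heat shock, unfolded protein response and ATF4 lists lie at 0.25 to 0.26.

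Most interferon-stimulated genes were below DMSO with both inhibitors, and most were higher with MRTX1719 than with GSK3326595. Of 45 genes, 30 were higher with MRTX1719 than with GSK3326595 and 3 were lower (median 0.16). Against DMSO, 32 were lower and 6 higher with MRTX1719 (median -0.21), and 40 were lower and 1 higher with GSK3326595 (median -0.43). Isg15, a ubiquitin-like antiviral protein, stood at 83.1, 85.9 and 83.1 CPM with MRTX1719, 66.8, 61.5 and 64.1 CPM with GSK3326595 and 87.3, 92.6 and 91.4 CPM with DMSO. The 3 groups did not overlap, and the log2 fold change between the inhibitors was 0.39 ± 0.035 (adjusted p = 4.33e-20). Usp18, the protease that removes ISG15 from proteins, was 48.2, 48.3 and 48.1 CPM against 34.3, 33.6 and 32.3 CPM (0.53 ± 0.042). Ifit2, an RNA-binding antiviral protein, was 163, 162 and 162 CPM against 105, 109 and 107 CPM (0.61 ± 0.029, adjusted p = 4.31e-42) and was above DMSO with either compound (0.71 and 0.10). Rsad2, or viperin, was 126, 129 and 127 CPM against 95.3, 102 and 98.1 CPM (0.38 ± 0.03). Bst2 (-0.21 ± 0.026), Ifi27 (-0.18 ± 0.046) and Oasl2 (-0.08 ± 0.032) were the 3 genes lower with MRTX1719. Irf7, a transcription factor of the pathway, gave no call between the inhibitors (-0.00 ± 0.04, 95% interval -0.08 to 0.07), although it was far below DMSO with both (log2 -0.83 with MRTX1719 and -0.83 with GSK3326595). Several listed genes, among them Oas1a, Ifit3 and Ifit3b, have close paralogs that may share reads.

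GAAA repeated after 2 bases, the core of the interferon-stimulated response element, was present in the windows of 17 of 33 listed genes, against 3.99% of all genes. Isg15 (chr4:156200819-156201068, minus strand) is shown because it carries 3 overlapping matches, in capitals as 1 run.
Isg15: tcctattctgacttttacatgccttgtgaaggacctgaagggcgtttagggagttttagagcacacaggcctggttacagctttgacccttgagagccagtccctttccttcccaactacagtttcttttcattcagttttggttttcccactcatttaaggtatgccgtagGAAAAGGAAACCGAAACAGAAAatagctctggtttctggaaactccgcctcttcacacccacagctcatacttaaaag

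Antigen presentation did not follow the interferon list. Of 20 MHC class I genes, 10 were lower and 4 higher with MRTX1719 (median -0.04). Without GSK3326595 replicate 1, 8 were lower and 4 higher. B2m, the invariant light chain, was 439.6, 434 and 432 CPM with MRTX1719, 485, 488 and 507 CPM with GSK3326595 and 918, 889 and 878 CPM with DMSO. The difference between the inhibitors (-0.18 ± 0.02) was small beside the distance of either from DMSO (-1.04 and -0.86). The heavy chains H2-K1 (-0.29 ± 0.036) and H2-D1 (-0.12 ± 0.021) and the immunoproteasome subunit Psmb9 (-0.52 ± 0.08) were lower, with the reservation that class I heavy chains are near-identical and may share reads. The 4 higher genes were Calr, Pdia3, Canx and Tap1; the first 3 are general chaperones of the endoplasmic reticulum. Of 18 genes of cytosolic nucleic acid sensing, 8 were higher and 3 lower, with the kinase Tbk1 higher (0.34 ± 0.037) and Irf3 lower (-0.34 ± 0.055). Cd274, which encodes PD-L1, gave no call (0.12 ± 0.076, adjusted p = 0.17). Among ligands of T and NK cell receptors, Pvr was 251, 252 and 260.2 CPM against 173, 179 and 173 CPM (0.54 ± 0.025, adjusted p = 1.17e-43) and Lgals3, galectin-3, was 616, 648 and 620.2 CPM against 489, 462 and 481 CPM (0.40 ± 0.021).

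Genes controlled by p53 leaned upward. Of 28 targets and regulators, 14 were higher and 4 lower (median 0.16). Cdkn1a, the cell cycle inhibitor p21, stood at 30.6, 30.8 and 29.9 CPM with MRTX1719, 18.9, 17.9 and 16.7 CPM with GSK3326595 and 10.4, 10.3 and 9.77 CPM with DMSO. The 3 groups lay apart in that order, and the difference between the inhibitors was 0.78 ± 0.055 (adjusted p = 1.08e-26). Mdm4, an inhibitor of p53 whose splicing is known to depend on PRMT5, stood at 52.0, 54.2 and 52.1 CPM, 66.5, 76.1 and 73.2 CPM and 115, 115 and 112 CPM, with a difference of -0.45 ± 0.037 (adjusted p = 3.5e-22). Gene counts do not show which Mdm4 isoform the reads came from. The death receptor genes Eda2r (1.06 ± 0.10) and Tnfrsf10b (0.32 ± 0.04) and the metabolic phosphatase Tigar (0.69 ± 0.11) were higher. Gdf15, at 0.194 CPM with GSK3326595, was 1.33 CPM with MRTX1719 (2.72 ± 0.36). Without GSK3326595 replicate 3, 2 of the list were lower. Trp53 RNA gave no call (-0.05 ± 0.025, 95% interval -0.10 to -0.00), and Rrm2b was lower (-0.23 ± 0.059). Among apoptosis regulators, 9 of 22 were higher and 6 lower, against 28.3% and 24.9% of all genes. Bcl2l1 (0.34 ± 0.032) was higher, and Bcl2 (-0.41 ± 0.044) and Bmf (-0.47 ± 0.086) were lower.

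Most genes of DNA replication were above DMSO with both inhibitors, 26 higher and 7 lower of 35 with MRTX1719 (median 0.38) and 27 higher and 4 lower with GSK3326595 (median 0.23). Of 35 genes, 19 were higher and 8 lower between the inhibitors (median 0.11). Mcm10, a replication initiation factor, was 94.5, 90.6 and 97.5 CPM with MRTX1719, 69.5, 68.9 and 69.7 CPM with GSK3326595 and 45.8, 48.8 and 48.0 CPM with DMSO (0.44 ± 0.034 between the inhibitors, adjusted p = 4.34e-24). Pcna, the sliding clamp, was 389, 405 and 398 CPM against 341, 339.8 and 340.0 CPM (0.22 ± 0.021). E2f1, a transcription factor of the G1/S step, went against the list, at 16.9, 17.4 and 18.9 CPM with MRTX1719, 24.4, 26.6 and 25.9 CPM with GSK3326595 and 27.3, 31.0 and 29.5 CPM with DMSO (-0.54 ± 0.059). Of 30 mitosis genes, 15 were higher and 4 lower by small steps (median 0.08), with Plk1 at 0.30 ± 0.032 and Top2a at -0.18 ± 0.019. TTTGAA, the core of the cell cycle homology region, was present in the windows of 18 of 25 mitosis genes against 20.2% of all genes, and CCAAT in 19 of 25 against 41.1%. Of 30 homologous recombination and Fanconi genes, 12 were lower and 6 higher. Atr, the replication stress kinase, was 32.5, 30.6 and 35.8 CPM with MRTX1719 against 43.7, 45.7 and 44.2 CPM with GSK3326595 (-0.44 ± 0.045, adjusted p = 1.15e-16), Brca2 was 34.5, 32.7 and 35.2 CPM against 42.0, 46.8 and 43.9 CPM (-0.38 ± 0.045) and Mre11a differed by -0.42 ± 0.045. Brca1 gave no call (0.05 ± 0.035, 95% interval -0.02 to 0.12), and its partner Bard1 was higher (0.24 ± 0.051).

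Matrix genes were found on both sides. Of 37 mesenchymal and matrix genes, 16 were lower and 14 higher (median -0.01). Hspg2, the basement membrane proteoglycan perlecan and outside that list, had the smallest p of all genes, at 319.8, 308 and 309 CPM with MRTX1719, 699, 663 and 665 CPM with GSK3326595 and 913, 889 and 901 CPM with DMSO (-1.11 ± 0.021, adjusted p = 1.94e-89). The collagen VI chains moved together, Col6a1 at 535, 537 and 529.9 CPM against 1009, 979.8 and 974 CPM (-0.89 ± 0.019) and Col6a2 at 393, 389 and 376 CPM against 729.9, 707 and 694 CPM (-0.88 ± 0.02). Both also fell against DMSO with GSK3326595 (-0.77 and -0.74). Islr, a leucine-rich repeat protein of mesenchymal cells, was 18.0, 18.6 and 17.1 CPM with MRTX1719, 68.0, 58.8 and 61.2 CPM with GSK3326595 and 216, 224 and 219.6 CPM with DMSO (-1.80 ± 0.047, adjusted p = 4.08e-71). Col3a1 (-0.52 ± 0.018), fibronectin Fn1 (-0.43 ± 0.016), Col1a2 (-0.41 ± 0.018) and Col1a1 (-0.29 ± 0.018) were lower. The gelatinase Mmp9 (-1.09 ± 0.10) and periostin, Postn (-1.56 ± 0.28), both scarce, were lower as well. Scarce genes that were higher included the stromelysins Mmp10 (3.79 CPM with GSK3326595, 1.03 ± 0.13) and Mmp3 (0.624 CPM, 1.63 ± 0.28), lysyl oxidase Lox (1.05 CPM, 1.05 ± 0.24), and smooth muscle actin Acta2 (0.554 CPM, 1.29 ± 0.31). Tgfbi, a matrix protein induced by TGF-beta, was higher at a middle level (118 against 80.5 CPM, 0.55 ± 0.033). Of the 8 fibroblast and endothelium markers tested, 5 were lower and 1 higher, and their summed CPM was 2844 to 2873 with MRTX1719 and 4040 to 4091 with GSK3326595. Col3a1, Dcn, Pdgfra, Lum and Pdgfrb made up the lower 5. The endothelial gene Kdr had 1 count over the 6 libraries, and whether the cells' makeup moved with these results was not tested.

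More immediate early genes, histones and noncoding RNAs were called lower than higher with MRTX1719. These classes can also move with how cells or RNA are handled, which was not tested. Of 20 immediate early genes, 11 were lower and 5 higher (median -0.14). Egr1, a factor induced within minutes of growth signals, was 78.5, 76.6 and 73.5 CPM with MRTX1719, 138, 135 and 135 CPM with GSK3326595 and 269, 268 and 262 CPM with DMSO (-0.83 ± 0.027, adjusted p = 3.47e-60). Spry2, a feedback inhibitor of the MAP kinase pathway, was 107, 104 and 106 CPM against 179.6, 176 and 174 CPM (-0.74 ± 0.027), and Spry4 (-0.47 ± 0.037), Fos (-0.76 ± 0.098) and Ier2 (-0.58 ± 0.042) were lower too. Atf3 (0.81) and Dusp1 (0.26 ± 0.035) were higher. The linker histone H1f0 was 338, 348 and 341 CPM with MRTX1719 against 591, 575 and 568 CPM with GSK3326595 (-0.76 ± 0.02, adjusted p = 3.63e-70), and 7 of 14 histone genes were lower and 2 higher. Of 11 nuclear or imprinted noncoding RNAs, 6 were lower and 2 higher, among them the snoRNA hosts Snhg1 (-0.49 ± 0.039) and Gas5 (-0.25 ± 0.023) and the nuclear RNA Malat1 (-0.27 ± 0.047). Of these RNAs, 1 was higher without GSK3326595 replicate 1.

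The target and its surroundings differed by less. Prmt5 itself stood at 110.0, 110.0 and 109.7 CPM with MRTX1719 and 108, 108 and 113 CPM with GSK3326595 (0.00 ± 0.03, 95% interval -0.06 to 0.06). The groups overlapped, so a difference beyond that interval was not seen. Of 14 genes of the PRMT5 complex and its Sm substrates, 7 were higher and 1 lower (median 0.05). Without GSK3326595 replicate 1, 6 were higher and 2 lower. Smn1, the assembly factor that binds methylated Sm proteins, was 58.5, 61.8 and 58.7 CPM against 48.7, 46.0 and 45.6 CPM (0.35 ± 0.04, adjusted p = 2.61e-14). Wdr77 was the lower one, at 22.1, 24.7 and 26.9 CPM against 28.1, 27.1 and 28.3 CPM (-0.18 ± 0.055, adjusted p = 0.00401), and without MRTX1719 replicate 1 it was -0.11 with an adjusted p of 0.117. Among other arginine methyltransferases, Carm1 (-0.30 ± 0.032) and Prmt3 (-0.28 ± 0.044) were lower and Prmt2 (0.15 ± 0.044) was higher. Prmt1, the main asymmetric methyltransferase, gave no call (-0.04 ± 0.027, 95% interval -0.10 to 0.01). Of 23 splicing factors, 10 were lower and 6 higher, led by Hnrnpa1 (-0.24 ± 0.018) and Srsf5 (-0.26 ± 0.021) below and Srsf11 (0.19 ± 0.023) above.

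Genes that make and use MTA were on both sides. Of 18 genes of methionine, MTA and polyamine metabolism, 9 were higher and 7 lower with MRTX1719. Sat1, the acetyltransferase that starts polyamine breakdown, was 197, 210.1 and 202 CPM with MRTX1719, 118, 120.3 and 120.0 CPM with GSK3326595 and 79.4, 83.3 and 80.5 CPM with DMSO (0.77 ± 0.028, adjusted p = 4.02e-55). The synthesis genes Odc1 (0.31 ± 0.02) and Amd1 (0.39 ± 0.033) and Azin1 (0.39 ± 0.026), which protects ODC1 from degradation, were higher too. Mat2a, the enzyme that makes S-adenosylmethionine, the methyl donor of PRMT5, was 169, 174 and 173 CPM against 222, 226 and 226 CPM (-0.39 ± 0.024, adjusted p = 2.51e-31), below DMSO with either compound (-0.90 and -0.51). What was left of Mtap RNA was lower as well (-0.26 ± 0.023, adjusted p = 5.41e-20).

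Of 25 oxidative phosphorylation genes, 14 were higher and 1 lower (median 0.11), with cytochrome c, Cycs, at 61.6, 64.9 and 60.6 CPM against 46.1, 44.0 and 47.2 CPM (0.45 ± 0.038) and the succinate dehydrogenase subunit Sdhd at 0.36 ± 0.031. Without GSK3326595 replicate 1 or without MRTX1719 replicate 2, 2 were lower. Reads of Cycs may be shared with its processed copies. Of 22 lysosome and autophagy genes, 15 were higher and 3 lower (median 0.16), led by the cholesterol exporter Npc1 (84.9, 83.9 and 86.1 against 54.3, 57.1 and 58.7 CPM, 0.58 ± 0.036) and the proton pump subunit Atp6v1h (0.47 ± 0.034). Of 25 cytosolic ribosomal protein genes, 22 were lower and 0 higher, by small steps (median -0.13, largest for Rps19 at -0.33 ± 0.023 and Rplp0 at -0.32 ± 0.016). Without GSK3326595 replicate 1, 20 were lower. Many of these genes have processed copies that can take reads. Of 25 ribosome biogenesis genes, 13 were higher and 6 lower, with Utp20 at 0.42 ± 0.029 and Rrp12 at 0.49 ± 0.041. Cholesterol and fatty acid genes were split, 13 higher and 7 lower of 28 (median 0.02), with Scd2 lower (-0.30 ± 0.018) and Msmo1 higher (0.28 ± 0.029). The sterol reductase gene Tm7sf2 had the largest difference of that list, at 6.22, 6.48 and 6.03 CPM against 12.2, 13.3 and 10.8 CPM (-0.95 ± 0.094, adjusted p = 4.09e-17).

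The genes with the largest differences were mostly scarce. The 10 with the largest positive log2 fold change, among called genes of at least 5 CPM in the higher group and without overlap, were Bmp6, Blnk, Usp17la, Cox6a2, Fam180a, Rasgef1a, Eda2r, Med12l, Mmp10 and Serpinb9b. Bmp6, a secreted bone morphogenetic protein, stood at 16.6, 19.7 and 18.1 CPM with MRTX1719, 3.42, 3.89 and 4.66 CPM with GSK3326595 and 0.513, 0.688 and 0.745 CPM with DMSO (2.18 ± 0.10, adjusted p = 6.18e-44). It was above DMSO with both compounds and highest with MRTX1719. Serpinb9b, a granzyme-inhibitor family serpin, was the most abundant of the 10, at 172, 175 and 173 CPM, 89.1, 85.7 and 83.1 CPM and 25.7, 26.1 and 26.5 CPM (1.01 ± 0.03, adjusted p = 8.72e-65); mouse Serpinb9 genes are a close family, so its reads may be shared. Blnk, an adaptor of B cell receptor signalling, was 5.90, 5.41 and 5.93 CPM against 1.11, 1.47 and 1.64 CPM (2.01 ± 0.17). Cox6a2, the muscle form of a cytochrome c oxidase subunit, was 7.91, 7.80 and 6.65 CPM against 2.40, 2.42 and 2.25 CPM (1.67 ± 0.12). Usp17la (1.71 ± 0.14) belongs to a multicopy family and is uncertain. Fam180a was 5.76, 6.15 and 6.32 CPM with MRTX1719 against 2.31, 1.91 and 2.21 CPM with GSK3326595 and 2.16, 2.31 and 2.40 CPM with DMSO, so GSK3326595 libraries overlapped DMSO.

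The 10 with the largest negative change were Unc13a, Islr, Tle2, Fgf11, Lum, Adgrl1, Islr2, 1700029J07Rik, Scube3 and Tmem8b. Unc13a, a synaptic vesicle priming protein, stood at 9.28, 7.51 and 9.21 CPM with MRTX1719, 29.5, 29.9 and 30.2 CPM with GSK3326595 and 36.5, 38.3 and 39.4 CPM with DMSO (-1.80 ± 0.069, adjusted p = 3.51e-52). Adgrl1, the adhesion receptor latrophilin-1, was 9.74, 9.28 and 8.63 CPM, 22.9, 24.3 and 22.8 CPM and 49.9, 48.5 and 49.4 CPM (-1.34 ± 0.065). Fgf11, an intracellular FGF homologue, was 10.3, 9.83 and 9.26 CPM against 27.0, 26.8 and 28.0 CPM (-1.48 ± 0.067), and Tle2, a Groucho corepressor, was 2.93, 2.80 and 2.31 CPM against 6.96, 8.08 and 7.75 CPM (-1.50 ± 0.12). For 9 of the 10, the mean with either inhibitor lay below that with DMSO, and MRTX1719 lay lower. The exception was Lum, the keratan sulphate proteoglycan lumican, at a mean of 7.64 CPM with MRTX1719, 20.6 CPM with GSK3326595 and 14.1 CPM with DMSO (-1.44 ± 0.074).

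**Figure D4:**
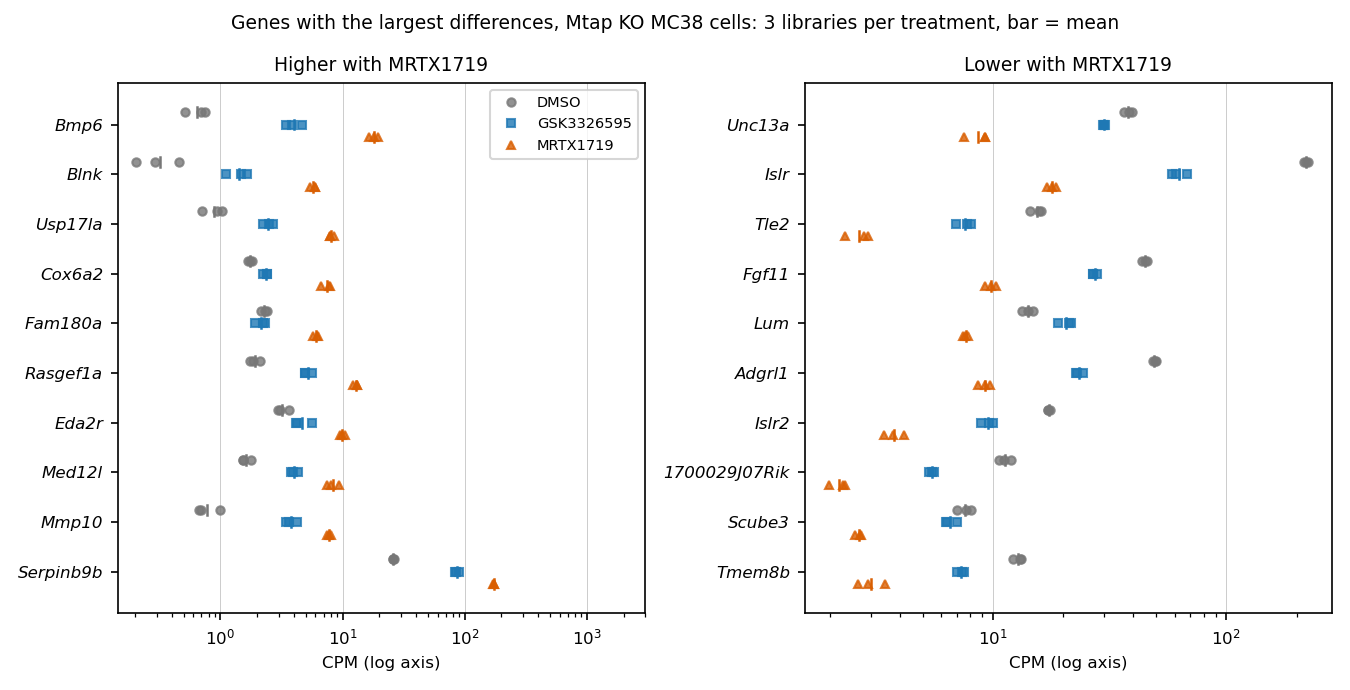
CPM on a log axis in each of 3 KO libraries per treatment (points) with the mean (bar), for the 10 genes most raised and the 10 most lowered with MRTX1719 relative to GSK3326595. The genes shown were chosen among those whose MRTX1719 and GSK3326595 libraries do not overlap. Bmp6 runs from 0.649 CPM with DMSO to 18.1 CPM with MRTX1719.

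Some genes moved to opposite sides of DMSO with the 2 inhibitors. Trp53inp1, a p53-induced stress protein, rose with MRTX1719 (log2 0.32 ± 0.09) and fell with GSK3326595 (-0.28 ± 0.097), from 7.19, 8.62 and 8.49 CPM with DMSO to 10.5, 9.42 and 10.7 CPM and 6.88, 6.76 and 6.49 CPM. Car6, a secreted carbonic anhydrase, rose with MRTX1719 (0.62 ± 0.062) and fell with GSK3326595 (-0.25 ± 0.069), and Bpgm, which makes bisphosphoglycerate, did likewise (0.23 ± 0.088 and -0.37 ± 0.094). Slc66a1 and Arxes2 were the other two named by size in this direction. In the other direction Lum fell with MRTX1719 (-0.89 ± 0.082) and rose with GSK3326595 (0.55 ± 0.065). Medag, a gene of adipocyte differentiation, had means of 8.44 CPM with MRTX1719, 15.7 CPM with GSK3326595 and 11.3 CPM with DMSO, and Jph2, a junctional membrane protein of muscle, was 10.1, 8.98 and 10.3, 16.5, 16.7 and 15.8 and 13.4, 11.9 and 12.6 CPM. Mpp2 (-0.67 between the inhibitors) and Ptprn (-0.53) completed these 5. The 10 were chosen because they were called against DMSO for both compounds in opposite directions. Each step was under 1 on the log2 scale. Libraries of some overlapped DMSO, such as Arxes2 with MRTX1719 (lowest 10.1 CPM, DMSO up to 10.4 CPM) and Mpp2 with GSK3326595 (lowest 7.90 CPM, DMSO up to 8.41 CPM).

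The same pair of compounds was compared in wild-type cells, in which MTAP clears MTA, with 2 MRTX1719 and 3 GSK3326595 libraries. There 4454 genes differed (30.0%), 2283 higher (15.4%) and 2171 lower (14.6%) with MRTX1719, and 174 by at least 2-fold (1.17%). The difference between the compounds itself differed between the lines at 6870 genes (46.3%), 3593 of them higher (24.2%) and 3277 lower (22.1%) in KO than in wild-type cells. The glycolysis list was lower in both lines, with 16 lower and 2 higher in wild-type cells (median -0.11) against 22 and 2 in KO cells, and for 21 of 26 genes the difference was more negative in KO cells. Interferon-stimulated genes were higher with MRTX1719 than with GSK3326595 by more in wild-type cells, where 44 of 45 were higher (median 0.51). For 36 the test of the lines' difference was passed toward wild-type cells. Their summed CPM in wild-type cells was 5429 to 5526 with MRTX1719, 3719 to 3776 with GSK3326595 and 5061 to 5115 with DMSO. Of MHC class I genes 15 of 20 were higher with MRTX1719 than with GSK3326595 in wild-type cells against 4 in KO cells. The test of the difference was passed in that direction by 15. The summed CPM of the MHC list in wild-type cells was 7942 to 8023 with MRTX1719, 6333 to 6366 with GSK3326595 and 8733 to 8907 with DMSO. Mitosis genes were lower with MRTX1719 than with GSK3326595 in wild-type cells (22 of 30, 0 higher), and 23 passed as higher in KO cells. The unfolded protein response list had 6 higher and 4 lower genes in wild-type cells, and 16 of 19 passed as higher in KO cells.

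Single genes showed how far the lines diverged. Hspa5 was 4643 and 4654 CPM with MRTX1719 and 4576, 4526 and 4502 CPM with GSK3326595 in wild-type cells (0.04 ± 0.018, adjusted p = 0.134), and the difference between the lines was 0.47 ± 0.025 (adjusted p = 1.82e-37). Hspg2 was higher with MRTX1719 than with GSK3326595 in wild-type cells (856 and 872 against 715, 703 and 730.1 CPM, 0.27 ± 0.022). With either compound it lay below the wild-type DMSO libraries (939, 981 and 956 CPM). The difference between the lines was -1.39 ± 0.03 (adjusted p = 3.24e-81). Mdm4 was also higher with MRTX1719 than with GSK3326595 in wild-type cells (111 and 113 against 97.2, 93.9 and 95.2 CPM, 0.23 ± 0.034). The wild-type DMSO libraries stood between them at 107, 105 and 107 CPM. In KO cells the value was -0.45 (difference -0.68 ± 0.05, adjusted p = 6.02e-25). Lum was lower with MRTX1719 in both lines (-1.19 ± 0.061 in wild-type cells), with a difference of -0.25 ± 0.1 between them (adjusted p = 0.0327). Medag, Jph2 and Slc66a1 also differed the same way in both lines, and for these 3 the test of the lines' difference was not passed (-0.19 ± 0.21, -0.12 ± 0.18 and 0.10 ± 0.18).

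**Figure D5:**
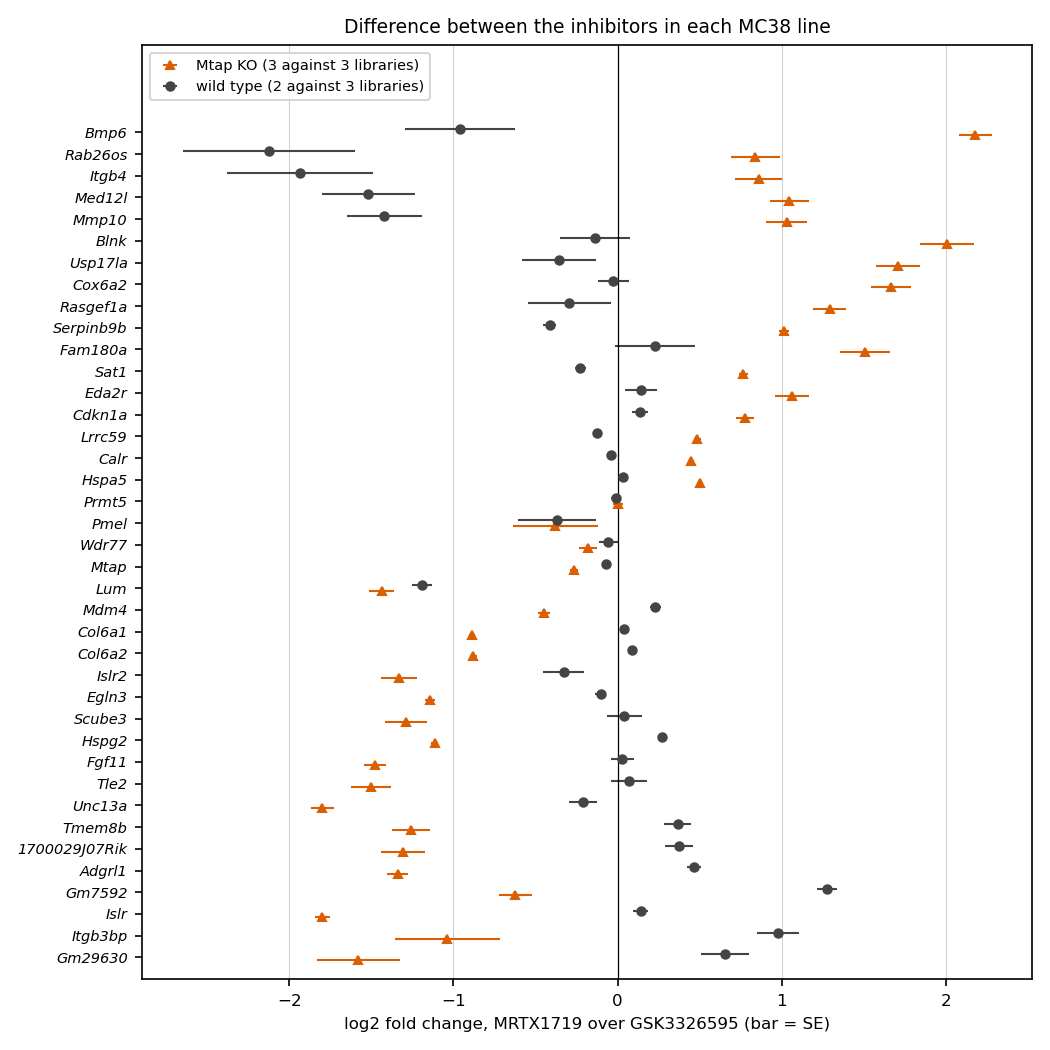
Log2 fold change of MRTX1719 over GSK3326595, with its standard error, in KO cells (triangles) and in wild-type cells (circles) for the genes named by size, by p or by the difference between the lines and for Mtap, Prmt5, Wdr77, Mdm4, Pmel and Cdkn1a, ordered by the difference between the lines. Bmp6 is at 2.18 in KO and -0.96 in wild-type cells, Prmt5 lies near 0 in both, and Lum is below 0 in both.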

How the data were processed

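RNA of MC38/gp100 cells was measured by poly(A) RNA sequencing, with directional libraries, per the labels' protocols. The authors deposited raw counts per gene. They also deposited a normalized signal, used here only to give each gene identifier the authors' symbol. It equals the counts divided by 1 size factor per library, and all 15629 entries were tied to a single identifier by value, within 1e-06. Where the supplied name table also named a gene, 14727 of 15190 symbols were the same; 4144 of 56562 identifiers had none. The build GRCm39 and the tools DESeq 1.18.0, Bowtie2 2.1.0 and TopHat2 2.0.10 are named in the submitters' processing notes. How reads were counted, and with which annotation and strand setting, was not given in the sources used here. Overlapping, antisense and near-identical genes may therefore share reads. Coordinates are given only for RefSeq promoters of GRCm38.p6.

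Counts of all 17 MC38 libraries were fitted together with edgeR 4.0.16 in R 4.3.3 (quasi-likelihood F test with robust estimation, TMM scaling, 6 groups, no covariates, low genes removed by filterByExpr). The filter left 14835 genes, and the common biological coefficient of variation was 0.0198. Adjusted p are Benjamini-Hochberg values over all genes tested, with a threshold of 0.05. Values after ± are approximate standard errors of log2 fold changes, taken as the absolute log2 fold change over the square root of F. Intervals are 95%, built from these with the normal distribution. Levels are CPM on scaled library sizes, listed by replicate number. The fit was tested on simulated counts. The labels number the replicates without saying whether they came from separate cultures, so the spread behind each p-value is that of libraries and may be technical. Only 1 pair of compounds was compared. Members and the 33 gene lists were chosen with earlier results of these data known, and lists are described by counts and medians with no test. Named genes were the 10 largest changes each way (at least 5 CPM in the higher group, no overlap) and the 5 smallest p each way. Also named were the 5 largest opposite changes against DMSO and the 5 largest differences between the lines, each way. Both of these needed at least 5 CPM in any group compared. Up to 4 genes per list by p and 6 genes set by role completed the set. Genes named beyond these were chosen from the lists after their values were seen. The hypoxia, endoplasmic reticulum stress and heat shock motifs were also added then. Alternatives were DESeq2 1.42.0, other scalings, no low-count filter, fewer groups, a replicate block and leaving out each library. T cell libraries were not used. Values of a few list members are not reported here.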

Additional observations from a re-analysis of the deposited data

Results flagged for a closer look

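The difference between MRTX1719 and GSK3326595 was not the same in the Mtap KO and wild-type lines at 6870 of 14835 genes, by the test of the lines' difference itself (edgeR quasi-likelihood, adjusted p under 0.05). Of the 164 genes named by rule, 144 passed that test. Most of these rules chose genes by the KO comparison, which is part of that test, or by the test itself. The count of 144 is raised by that choice and is no separate result. The wild-type MRTX1719 group has 2 libraries.

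The differences named next are the largest among called genes of at least 5 CPM in any of the groups compared. A gene could thus be near the floor in the other line, which makes its difference imprecise. The largest positive differences (KO minus wild type, log2) were at Bmp6 (3.14), Rab26os (2.96), Itgb4 (2.80), Med12l (2.57) and Mmp10 (2.45). All 5 were higher with MRTX1719 than with GSK3326595 in KO cells and lower in wild-type cells. Bmp6 was on average 0.454 CPM with MRTX1719 and 0.887 CPM with GSK3326595 in wild-type cells, against 18.1 and 3.99 CPM in KO cells. Itgb4, a laminin receptor subunit, was 0.208 CPM against 0.808 CPM in wild-type cells and 6.20 CPM against 3.45 CPM in KO cells, as means (2.80 ± 0.45, adjusted p = 7.64e-08). Rab26os is an antisense gene, and the strand setting of the counts is not given. In the wild-type MRTX1719 libraries together, Rab26os had 7 counts and Itgb4 had 11.

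The largest negative differences were at Gm29630 (-2.24), Itgb3bp (-2.02), Islr (-1.94), Gm7592 (-1.90) and Adgrl1 (-1.81). Gm7592, a predicted gene, was 40.3 and 38.4 CPM with MRTX1719 and 16.2, 17.8 and 14.7 CPM with GSK3326595 in wild-type cells, and 5.99, 5.30 and 5.11 CPM and 6.92, 8.88 and 9.24 CPM in KO cells. Itgb3bp, which encodes the centromere protein CENP-R, was 7.14 and 7.34 CPM against 3.81, 3.62 and 3.58 CPM in wild-type cells. In KO cells it was 0.411, 0.331 and 0.482 CPM against 0.887, 0.771 and 0.840 CPM, from 28 and 63 summed counts. Its mean with DMSO was 1.84 CPM in KO and 8.06 CPM in wild-type cells. Gm29630 had 43 counts over the KO MRTX1719 libraries.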

How the results depend on the processing

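The count of genes that differed between the inhibitors in KO cells (7889) was 7160 to 7527 when each of the 6 libraries was left out in turn, and 7110 to 7883 under DESeq2, other scalings, no low-count filter and fits to fewer groups. The count past 2-fold (388) was 363 to 389 and 271 to 399 in the same runs, lowest when only the 6 libraries were fitted. In each run 88.4% to 99.6% of the 7889 calls kept their direction and threshold, and 0 were called in the opposite direction. Same-numbered libraries of the KO groups did not deviate together (r -0.03 to 0.023, against -0.034 to 0.044 for other pairs). This gave no sign of pairing by number but cannot exclude it, since such deviations also hold counting noise. With the replicate block 7813 genes were called. In wild-type cells, 174 genes past 2-fold became 92 under DESeq2, and the cause was not tested. With each wild-type library left out that count was 132 to 168; where 1 MRTX1719 library is left, it is assumed to vary like the other groups.

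Of 858 list counts over these settings in the KO comparison, 31 moved by over 1.5 times, all in 9 small counts, such as 1 or 2 heat shock genes called lower. Of 2129 runs of named genes, 14 lost the call, in 5 genes (Cdh1, Wdr77, Jup, Krt7 and Tubb3), and 0 reversed. Genes near 1 CPM have few counts, which limits their precision.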

Other observations

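Secreted factors were split between the inhibitors. Of 21 chemokine and cytokine genes tested, 8 were higher and 4 lower with MRTX1719 than with GSK3326595 in KO cells, against 28.3% and 24.9% of all genes. Without GSK3326595 replicate 1, 6 were higher and 3 lower. Ccl9 was 27.1, 28.5 and 27.2 CPM with MRTX1719, 22.2, 20.2 and 20.8 CPM with GSK3326595 and 7.44, 7.04 and 7.08 CPM with DMSO (0.39 ± 0.061, adjusted p = 9.96e-09). Csf2, the growth factor GM-CSF, was scarce at 1.55, 1.21 and 1.25 CPM against 0.665, 0.624 and 0.573 CPM (1.10 ± 0.27). Cx3cl1, the membrane-bound fractalkine, was lower (121, 122 and 111 against 146, 146 and 147 CPM, -0.31 ± 0.03). Ccl2, the most abundant chemokine of the list, gave no call (-0.02 ± 0.02, 95% interval -0.06 to 0.01).

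The list counts that follow stand against 28.3% of all genes called higher and 24.9% called lower. Of 5 axon and neuronal genes tested, 3 were higher and 1 lower. Ncam1, a neural adhesion molecule, was 16.1, 16.6 and 16.7 CPM with MRTX1719, 29.2, 30.1 and 29.0 CPM with GSK3326595 and 34.9, 32.1 and 30.2 CPM with DMSO (-0.84 ± 0.058, adjusted p = 1.37e-27). Gap43, a growth cone protein, was 34.2, 37.8 and 33.8 CPM, 27.4, 27.7 and 29.1 CPM and 9.65, 10.2 and 10.5 CPM (0.33 ± 0.054). Of 11 epithelial genes, 1 was higher and 3 were lower, with 0 and 1 without GSK3326595 replicate 1 or without MRTX1719 replicate 2, 0 higher without MRTX1719 replicate 3, and 2 higher without GSK3326595 replicate 2. The keratin Krt8 was far above DMSO with both inhibitors (log2 2.01 with MRTX1719 and 2.06 with GSK3326595) and gave no call between them (-0.04 ± 0.04, 95% interval -0.12 to 0.04). Of 13 genes of cell cycle inhibition and senescence, 5 were higher and 5 lower, with Gadd45a higher (0.37 ± 0.032) and Gadd45b (-0.45 ± 0.06) and Ccnd1 (-0.23 ± 0.02) lower. Of 15 ligands and receptors of immune checkpoints and death signalling, 7 were higher and 5 lower, among them Nectin2 (0.30 ± 0.034) and Nectin3 (-0.30 ± 0.084). There were 2 lower without GSK3326595 replicate 1, and without MRTX1719 replicate 1 or 3, 3 were. Pmel, the mouse gene for the gp100 antigen, was at 1.01, 1.07 and 0.579 CPM with MRTX1719 and 1.29, 0.991 and 1.26 CPM with GSK3326595 and gave no call (-0.38 ± 0.26, adjusted p = 0.216).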
